A study of Mus musculus with 2 samples.

Results

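Solute carriers are membrane proteins that move amino acids, sugars, nucleosides, ions and metabolites across the cell surface and the membranes of organelles. The genes studied here were those whose symbol starts with Slc and a digit and that had at least 200 UMIs over both libraries, counting every barcode. Of 31053 genes listed, 375 had such a symbol, and 184 reached the minimum. The other 191 stayed under it, and 38 of them had no UMI. Slc52a3 and Slc29a4, with 201 UMIs each, lay just inside the limit, and Slc19a2, with 199, lay just outside. The rule read the total only, so the level of a gene in a cell type or under a diet did not choose it, although the minimum favours genes of the abundant cell types.

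Single-cell RNA sequencing was performed on the aortic arch of male Apoe-/- mice on the C57BL/6 background at 16 weeks of age, which lack apolipoprotein E in every cell and develop high plasma cholesterol. The control (ND) group received chow, and the HFD group received a high-fat, high-cholesterol food with sodium cholate from weaning. Cells of 2 aortas were pooled into 1 library per diet, so there was no replicate, and the difference between diets cannot be told apart from the difference between the 2 libraries. No p-value is given, and each interval in parentheses is an exact 95% interval that covers counting error only.

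The 31053 genes were counted in 10234 ND and 14225 HFD barcodes, and 5416 ND and 2739 HFD cells with 200 or more genes, 200 or more UMIs and no more than 30% of UMIs from mitochondrial genes were kept. Kept HFD cells were deeper, with a median of 5336 UMIs against 3732.5, and had a higher median mitochondrial share of 21.9% against 16.8%. Cell types were gated by 13 marker lists and named after the cell they resemble. A gate required at least 3 UMIs from at least 2 markers of its list and 4 times the sum of every other list, and other cells were left ungated. The endothelial-like gate, for instance, rested on Pecam1, Cdh5, Egfl7, Emcn, Tie1 and Ptprb, so the levels of these markers check nothing. Endothelial-like cells numbered 2211 in ND and 981 in HFD, fibroblast-like cells 1020 and 434, and macrophage-like cells 361 and 525. T-like cells numbered 255 and 24, mural-like cells 54 and 21, and dendritic-like cells 23 and 26. B-like cells (503 and 11), neutrophil-like cells (67 and 2), adipocyte-like cells (25 and 9) and club-like cells (62 and 0) were described in ND only. Mesothelial-like, cardiomyocyte-like and Schwann-like gates held under 20 cells in each library and gave no value. The mitochondrial limit removed more gated barcodes in HFD. Without it, endothelial-like barcodes numbered 2903 in ND and 4207 in HFD, T-like 348 and 347, and neutrophil-like 116 and 129. A small HFD gate is therefore not a measure of how rare the cell type was. Barcodes with haemoglobin at 5% of UMIs or more were set apart (54 and 263), and 39 barcode sequences occurred in both libraries, 1 of them among kept cells.

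Some solute carriers exchange or cotransport their substrate along ion gradients that the sodium pump maintains, while carriers of the Slc25 family serve the inner mitochondrial membrane. In the vessel wall, endothelial cells use them to take up nutrients and to clear adenosine, and macrophages use them to handle iron, amino acids and the contents of lysosomes. A few symbols of the series name other proteins. Slc9a3r1 and Slc9a3r2 encode scaffold proteins that bind sodium-proton exchangers, and Slc4a1ap and Slc7a6os are also no carriers, so 4 of the 184 members do not transport.

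The 184 members held 0.561% of UMIs of kept cells in ND and 0.630% in HFD. By family, 34 were mitochondrial carriers, and 26 belonged to the families known for amino acids (among them the taurine, creatine and nucleobase carriers Slc6a6, Slc6a8 and Slc43a3). The nucleotide sugar families had 19, the zinc and manganese families 16 and the families known for sugars 11, among them the myo-inositol carrier Slc5a3. Family number set these groups, so a member need not carry the substrate of its group. The largest sum over kept cells was that of Slc38a2, a sodium-coupled carrier of small neutral amino acids, with 26105 UMIs. Slc6a6, the taurine transporter, followed with 16097, and Slc25a3, the mitochondrial phosphate carrier, with 15655. Slc9a3r2 had 13715, the ADP/ATP carrier Slc25a5 had 9924, and Slc3a2, the heavy chain of several amino acid exchangers, had 6389. Slc43a3, a purine nucleobase carrier, had 6066, the second ADP/ATP carrier Slc25a4 had 5397, the zinc importer Slc39a1 had 4054 and the sugar carrier Slc50a1 had 3391. These 10 genes together gave 41% of all member UMIs, and the median member had 949.5 UMIs over all barcodes.

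Several abundant members were present in every main cell type, at levels given here as CPM, the gene's UMIs over all UMIs of the cell group, times 1000000. Slc38a2 was at 743 CPM in ND and 773 CPM in HFD in endothelial-like cells, at 450 and 387 CPM in fibroblast-like cells, at 420.1 and 297 CPM in macrophage-like cells and at 616 and 566 CPM in T-like cells. Slc25a3 stayed within a narrower range, from 254 to 499.6 CPM over the same 4 gates. Others kept to some cell types. Slc43a3 stood at 345 and 376 CPM in fibroblast-like and 161 and 151 CPM in endothelial-like cells, but at 8.42 and 8.03 CPM in macrophage-like cells. The ADP/ATP carriers differed in order, since Slc25a4 was higher in mural-like cells, at 405 and 348 CPM, against 107 and 110.4 CPM in endothelial-like cells, where Slc25a5 stood at 237 and 224 CPM. Slc4a1, the anion exchanger of red cells, had 13 and 127 UMIs in haemoglobin-rich barcodes and 0 and 3 in endothelial-like cells.

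Promoters are shown for 4 members that were at least 4-fold higher in at least 1 cell type. They are shown since endothelial and myeloid genes are known to be bound by ETS factors at a GGAA core. Of the 184 members, 140 were matched by symbol in the RefSeq promoter table (GRCm38.p6), which gives 300 bases per window. Each window runs 5′ to 3′ on the gene's strand, from 250 bases before to 50 bases after the start. Capitals mark the motif CCGGAA, the motif CAGGAA or the motif GAGGAA on either strand, and a match on the other strand appears as its reverse complement. The first window belongs to Slc28a2, a sodium-coupled carrier of purine nucleosides, and lies on the plus strand at chr2:122426185-122426484. The others belong to the glutamate carrier Slc1a1 (chr19:28834885-28835184, plus strand), the neutral amino acid exchanger Slc7a8 (chr14:54781837-54782136, minus strand) and the phagosomal metal carrier Slc11a1 (chr1:74374953-74375252, plus strand).
Slc28a2: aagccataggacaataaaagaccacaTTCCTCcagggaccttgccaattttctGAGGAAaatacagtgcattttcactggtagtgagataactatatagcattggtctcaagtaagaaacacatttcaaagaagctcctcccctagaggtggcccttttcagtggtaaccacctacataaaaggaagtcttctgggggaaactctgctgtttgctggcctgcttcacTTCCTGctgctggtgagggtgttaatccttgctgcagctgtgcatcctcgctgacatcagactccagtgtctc
Slc1a1: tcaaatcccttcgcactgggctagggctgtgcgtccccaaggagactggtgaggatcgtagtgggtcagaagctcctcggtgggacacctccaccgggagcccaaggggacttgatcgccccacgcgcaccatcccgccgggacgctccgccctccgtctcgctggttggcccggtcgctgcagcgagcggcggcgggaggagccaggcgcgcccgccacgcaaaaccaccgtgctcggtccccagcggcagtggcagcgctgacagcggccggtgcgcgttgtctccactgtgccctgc
Slc7a8: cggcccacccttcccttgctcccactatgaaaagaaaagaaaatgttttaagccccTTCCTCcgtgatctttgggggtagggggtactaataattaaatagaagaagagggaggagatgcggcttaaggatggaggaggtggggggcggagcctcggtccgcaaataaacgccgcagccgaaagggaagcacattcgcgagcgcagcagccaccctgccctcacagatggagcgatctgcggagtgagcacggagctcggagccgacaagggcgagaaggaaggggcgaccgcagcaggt
Slc11a1: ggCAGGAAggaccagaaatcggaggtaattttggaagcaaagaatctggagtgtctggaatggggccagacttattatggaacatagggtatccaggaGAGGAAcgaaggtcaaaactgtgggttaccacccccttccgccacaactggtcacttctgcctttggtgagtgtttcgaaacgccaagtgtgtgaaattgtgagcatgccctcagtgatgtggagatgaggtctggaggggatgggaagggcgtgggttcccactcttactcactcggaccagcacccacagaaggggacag

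The Slc28a2 window held 3 matches, that of Slc11a1 held 2, that of Slc7a8 held 1 and that of Slc1a1 held 0. At least 1 of the 3 motifs was present in 57.6% of 32851 windows of all genes and in 64.4% of 191 windows of members. For members at least 4-fold higher in a cell type, the shares were 63.6% of 11 windows (7 genes) for endothelial-like, 71.4% of 14 windows (9 genes) for macrophage-like and 62.5% of 16 windows (10 genes) for fibroblast-like cells. CCGGAA was in 14.9% of all windows, 27.2% of member windows, 1 of the endothelial and 2 of the macrophage windows. CAGGAA was in 30.6%, 35.6%, 4 and 6, and GAGGAA in 28.3%, 22%, 3 and 7. Of the 16 fibroblast windows, CCGGAA was in 4, CAGGAA in 5 and GAGGAA in 5. These shares describe few windows, and letters in a window are not a binding site.

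Slc6a6 (ENSMUSG00000030096, chr6:91684053-91759066, plus strand, GRCm38) imports taurine, an osmolyte of many cells, with sodium and chloride. Of the members compared in endothelial-like cells, it had the largest ratio between the diets. These cells held 1394 UMIs of Slc6a6 in ND and 6939 in HFD. Its level was 126 CPM (119.9 to 133) in ND and 1136 CPM (1109.8 to 1163) in HFD, 8.99-fold higher in HFD (8.48 to 9.53). It was the 5th highest ratio of 10604 genes compared in the gate. In ND, endothelial-like cells were below macrophage-like cells, at 344 CPM (317 to 372), and close to fibroblast-like cells, at 111 CPM (101 to 121). In HFD they were above every other gate of at least 20 cells.

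Outside the endothelium, Slc6a6 moved less. Macrophage-like cells went from 344 to 441 CPM, 1.28-fold (1.17 to 1.41), fibroblast-like cells from 111 to 131 CPM, 1.18-fold (1.01 to 1.38), and dendritic-like cells from 285 to 289 CPM, 1.01-fold (0.657 to 1.56). Mural-like cells, with 67 and 47 UMIs, went from 224 to 467 CPM, 2.08-fold (1.40 to 3.07), and T-like cells, with 48 and 23 UMIs, from 64.1 to 145 CPM, 2.26-fold (1.31 to 3.78). The difference in ratio between gates was not tested.

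Slc6a6 UMIs were also frequent in barcodes that the filter removed, at 82.2 CPM in ND and 486 CPM in HFD, 5.92-fold. Haemoglobin-rich barcodes went from 111 to 846 CPM. In HFD, mural-like, macrophage-like, dendritic-like, T-like and fibroblast-like cells all lay below the removed barcodes, and endothelial-like cells lay above them. Removed barcodes do not measure free RNA alone, since they include endothelial-like barcodes above the mitochondrial limit. In HFD, 1763 such barcodes at 30 to 50% mitochondrial UMIs held 5474 UMIs of Slc6a6, and 1463 above 50% held 2737. Free RNA can add UMIs to any cell, and its part in the smaller differences was not tested.

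A UMI of Slc6a6 was found in 592 of 2211 endothelial-like cells in ND, 26.8% (24.9 to 28.7), and in 849 of 981 in HFD, 86.5% (84.2 to 88.6). The median depth was 3623 UMIs in ND and 5343 in HFD, and with each cell thinned to 1000 UMIs the shares were 10.7% and 60.3%. For comparison, B-like cells of ND had a UMI in 25.0% of cells at a median of 3469 UMIs, and T-like cells in 15.7% (11.4 to 20.7) at 2573 UMIs. The ND share of endothelial-like cells thus lay near that of B-like cells and above that of T-like cells. In HFD, the median endothelial-like cell held 6 UMIs of Slc6a6, and 59.8% of cells held at least 5, against 3.08% in ND. The higher level was thus spread over most cells of the gate.

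The kept HFD cells had more mitochondrial UMIs, so Slc6a6 was also read within bands of that share, barcodes above 30% included. From under 10% to over 50% mitochondrial UMIs, endothelial-like barcodes of ND lay between 105 and 189 CPM, and those of HFD between 566 and 1325 CPM. No band of one library overlapped a band of the other. Within bands of depth, ND lay between 76.6 and 165 CPM and HFD between 727 and 1732 CPM.

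**Figure D1:**
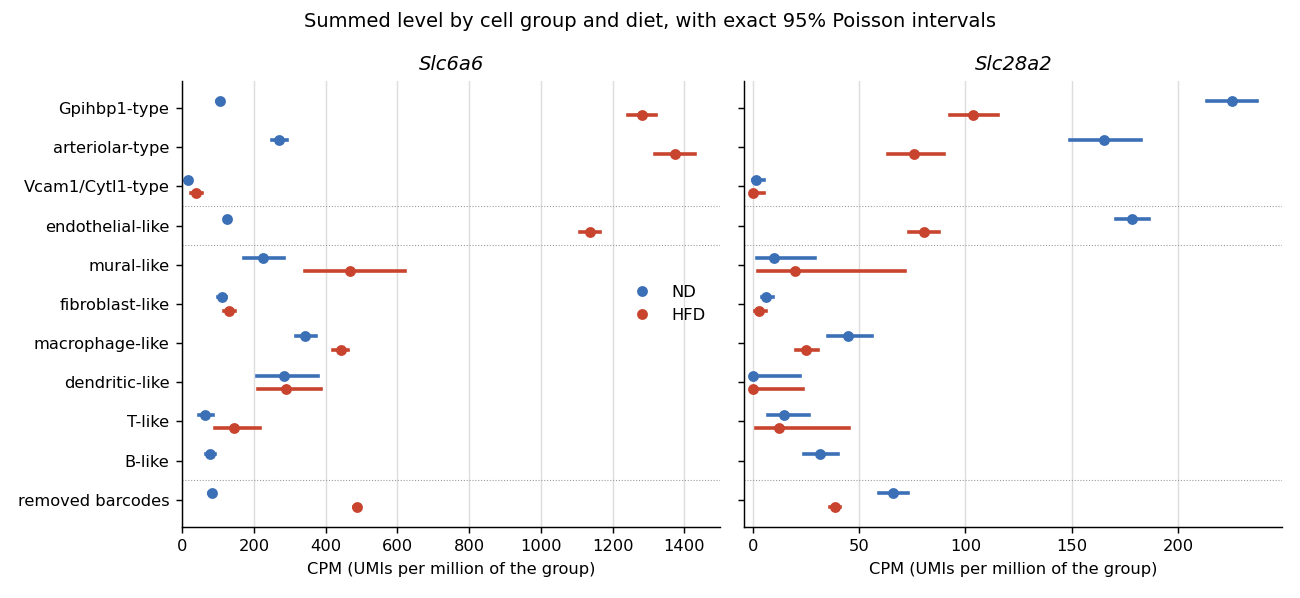
Level of Slc6a6 (left) and Slc28a2 (right) in CPM for ND (blue) and HFD (red), with points for sums over the cells of 1 library, lines for exact 95% Poisson intervals and no HFD point for B-like cells (11 cells). Slc6a6 went from 126 to 1136 CPM in endothelial-like cells against 17.1 and 38.6 CPM in Vcam1/Cytl1-type cells, and Slc28a2 went from 179 to 80.4 CPM in endothelial-like cells.

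Slc28a2 (ENSMUSG00000027219, chr2:122426477-122461137, plus strand), whose promoter is printed above, showed the opposite order of the diets. Endothelial-like cells held 1968 UMIs in ND and 491 in HFD, which is 179 CPM (171 to 187) and 80.4 CPM (73.5 to 87.8). The level was 2.22-fold lower in HFD, and the log2 ratio was -1.15 (-1.30 to -1.01). A UMI was found in 48.1% of ND cells (46 to 50.2) and 35.8% of HFD cells (32.8 to 38.9), and in 17.4% and 8.04% at 1000 UMIs. In fibroblast-like cells, which had few UMIs of Slc28a2, the shares were 2.06% and 1.38% at medians of 3853 and 4448 UMIs. The order of the diets held in every mitochondrial band, from 146 to 212 CPM in ND and from 33.1 to 91.2 CPM in HFD.

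Beside the endothelium, Slc28a2 was counted in macrophage-like cells at 44.9 CPM (35.6 to 55.9) in ND and 25.2 CPM (20.3 to 30.8) in HFD, and in B-like cells of ND at 31.5 CPM (24.3 to 40.2). Removed barcodes, which include endothelial-like ones above the mitochondrial limit, held 65.8 and 38.6 CPM, above these levels. No UMI of Slc28a2 was found in dendritic-like cells of either diet, which allows levels of up to 22.4 and 23.7 CPM. Gm14085, a near copy of Slc28a2, had 2 UMIs in endothelial-like cells of ND and 1 in HFD, and how reads common to both genes were counted is not stated in the labels or methods.

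Endothelial-like cells were then split by markers, with at least 2 UMIs per type and none of Ccl21a, Prox1 or Mmrn1. Arteriolar-type cells (329 in ND and 231 in HFD) had at least 2 different markers of Hey1, Sema3g and Stc1. They were set first and could also hold Gpihbp1, Vcam1 or Cytl1. Gpihbp1-type cells (1500 and 596), which carry the capillary lipoprotein lipase anchor, held no UMI of Vcam1 or Cytl1. Vcam1/Cytl1-type cells (180 and 78) held no UMI of Gpihbp1. Slc6a6 went from 105 to 1282 CPM in Gpihbp1-type cells, 12.2-fold (11.2 to 13.2), and from 271 to 1373 CPM in arteriolar-type cells, 5.07-fold (4.64 to 5.54). In Vcam1/Cytl1-type cells it had 23 UMIs in ND and 26 in HFD, at 17.1 CPM (10.9 to 25.7) and 38.6 CPM (25.2 to 56.6). These cells were lower than every other gate of at least 20 cells in both libraries, and lower than the removed barcodes, although they were the deepest of the 3 types, with medians of 6014 and 7221.5 UMIs.

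Slc28a2 was likewise at 225 and 104 CPM in Gpihbp1-type cells and at 165 and 75.9 CPM in arteriolar-type cells. Vcam1/Cytl1-type cells held 2 UMIs of Slc28a2 in ND and 0 in HFD. In ND the log2 ratio to Gpihbp1-type cells was -7.24 (-10.29 to -5.38). In HFD the level was at least 23.3-fold lower, when the 0 is replaced by a floor of 3 UMIs for the group.

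Between the 2 types, 82 members had at least 50 UMIs in each library and a UMI in each type. Of these, 10 were at least 2-fold higher in Vcam1/Cytl1-type cells in both libraries and 9 at least 2-fold lower. Over all 6863 genes the shares were 9.49% higher and 9.84% lower. Slc26a10, Slc28a2 and Slc16a1 had no UMI in Vcam1/Cytl1-type cells in 1 library and are not among the 82. Against the same floor of 3 UMIs, Slc26a10 was at least 11.3-fold lower in ND and the lactate carrier Slc16a1 at least 10.8-fold lower in HFD.

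Of the 10 members higher in Vcam1/Cytl1-type cells, 4 that carry bicarbonate, choline, nucleosides or nucleobases are given here. Slc4a4, the electrogenic sodium-bicarbonate cotransporter, had 116 UMIs against 4 in ND, 86.4 and 0.629 CPM, and 51 against 19 in HFD, 75.8 and 5.91 CPM. Slc44a2, a choline transporter-like protein, stood at 172 against 34 CPM in ND and at 290 against 31.1 CPM in HFD. Slc29a1, the equilibrative nucleoside carrier that takes up adenosine, stood at 131 against 37.4 CPM and at 181 against 27.7 CPM. For purine nucleobases, Slc43a3 stood at 367 against 114 CPM in ND and 370 against 109 CPM in HFD. Slc29a1 and Slc28a2 both carry nucleosides, and they differed between the types in opposite directions in both libraries.

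Among the lower members, Slc1a1 had 1 UMI in Vcam1/Cytl1-type cells of each library, against 536 and 245 in Gpihbp1-type cells, with log2 ratios of -6.82 (-12.1 to -4.34) and -5.68. The log2 ratio of Slc6a6 was -2.62 (-3.29 to -2.02) in ND and -5.05 (-5.67 to -4.50) in HFD. Slc10a6, a carrier of sulfated steroids, stood at 8.2 against 52.5 CPM and at 4.46 against 47.6 CPM. Slc25a25, a mitochondrial carrier of ATP-magnesium and phosphate, stood at 27.6 against 125 CPM in ND and at 8.91 against 159 CPM in HFD.

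**Figure D2:**
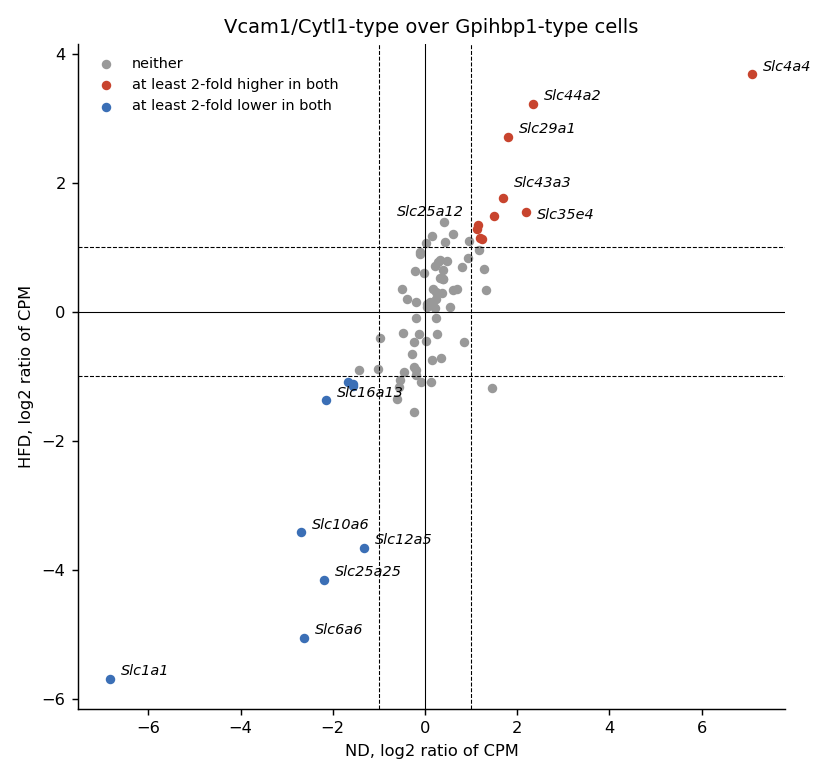
Log2 ratio of CPM between Vcam1/Cytl1-type and Gpihbp1-type endothelial-like cells for the 82 members compared, in ND (horizontal) and HFD (vertical), with dashed lines at a 2-fold difference. Slc4a4 lies farthest to the upper right, at 7.10 and 3.68, and Slc1a1 farthest to the lower left, at -6.82 and -5.68.

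Across all cell types, 63 members were at least 4-fold higher in 1 gate than in all other gated cells together, in each library with at least 20 cells of the gate, 6 of them in more than 1 gate. The other 121 were so in none. The share of all genes at least 4-fold higher in 1 gate or more was not computed. In endothelial-like cells the higher members were 8 of 153 compared, and the share over all genes was 6.29%. In fibroblast-like cells they were 11 of 121 (8.68% of all genes), and in macrophage-like cells 13 of 111 (7.10% of all genes). The shares of members in endothelial-like and fibroblast-like cells lay near those of all genes, and the larger share in macrophage-like cells was not tested.

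The 8 endothelial members were Slc9a3r2, Slc26a10, Slc1a1, Slc12a5, Slc16a13, Slc28a2, Slc9a5 and Slc25a25. Slc9a3r2, a scaffold and no carrier, was at 439 CPM in ND and 914 CPM in HFD, 19.9-fold (17.5 to 22.7) and 22.5-fold (19.9 to 25.6) over other gated cells. Slc26a10, of the anion exchanger family, was 23.4-fold (13.2 to 45.9) and 21.5-fold (13 to 38) higher. Its locus overlaps B4galnt1 on the other strand, and whether the counting used strand is not stated in the labels or methods.

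Slc1a1, known for the uptake of glutamate and cysteine, was 19.99-fold (14.4 to 28.6) and 17.7-fold (11.5 to 28.6) higher, at 66.6 CPM in ND and 60.8 CPM in HFD. No UMI of Slc1a1 was found in B-like cells of ND or in T-like cells. The potassium-chloride cotransporter Slc12a5, best known from neurons, was 13.7-fold and 8.79-fold higher on 136 and 109 UMIs. Slc16a13, of the monocarboxylate carriers, was 19.4-fold and 8.15-fold higher. Of these 8 genes, 5 could be compared between Vcam1/Cytl1-type and Gpihbp1-type cells. Slc1a1, Slc25a25, Slc12a5 and Slc16a13, 4 of the 5, were at least 2-fold lower in both libraries, as were 9.84% of all genes. That share is not a matched one, since the 8 genes were chosen as high in the endothelial-like gate. Gpihbp1-type cells made up 1500 of its 2211 cells in ND and 596 of 981 in HFD. The share over all genes chosen in this way was not computed. The other 3, Slc28a2, Slc26a10 and Slc9a5, had no UMI in Vcam1/Cytl1-type cells in 1 library and 2 or fewer in the other.

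Of the 11 fibroblast members, 4 carry amino acids (Slc38a4, Slc43a1, Slc7a6 and Slc6a9) and 2 carry bicarbonate or chloride (Slc4a4 and Slc4a3). Slc38a4, a neutral amino acid carrier, had 82 UMIs in ND and 31 in HFD, 20.5-fold (12 to 36.8) and 26.2-fold (10.8 to 76.9) over other gated cells. Slc16a9, a carnitine carrier, was 15.3-fold and 13.1-fold higher. Slc4a4 was at 97.6 CPM in ND and 142 CPM in HFD, 7.70-fold (6.53 to 9.10) and 10.7-fold (8.74 to 13.3).

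The same Slc4a4 marked a difference inside the gate. Fibroblast-like cells with Pi16 or Dpp4 had 145 CPM in ND and 166 CPM in HFD, and those with Inmt or Gdf10 had 28.7 and 51.9 CPM, a log2 ratio of -2.34 (-3.31 to -1.51) and -1.67. Cells with markers of both types were in neither. Of 32 members compared between these fibroblast types, 3 were at least 2-fold lower in Inmt-type cells in both libraries, among them Slc4a4 and the zinc importer Slc39a6, and 0 were higher. Over all 3355 genes 5.84% were lower and 2.38% higher.

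Also counted for fibroblast-like cells were the large neutral amino acid carrier Slc43a1, at 6.41-fold and 16.6-fold, and Slc27a3, of the fatty acid transport proteins, at 8.04-fold and 7.25-fold. The anion exchanger Slc4a3 was 5.87-fold and 7.73-fold higher than in other gated cells, although mural-like cells held more of it, at 97.0 CPM in ND (29 UMIs) and 29.8 CPM in HFD (3 UMIs), against 19.7 and 17 CPM. Slc7a6, Slc6a9, Slc2a10 and Slc22a17 were 4.14-fold to 12.6-fold higher.

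In macrophage-like cells, Slc7a8, an exchanger of large neutral amino acids, had 222 UMIs in ND and 285 in HFD and was 87.5-fold (59.3 to 134) and 33.4-fold (21.2 to 55.6) over other gated cells. Slc11a1, which exports metal ions from the phagosome, was at 156 and 172 CPM, 32.4-fold (25.7 to 41.3) and 50.4-fold (34.9 to 75.3). Slc11a1 was also called in neutrophil-like cells of ND, at 245 CPM on 33 UMIs, 15.7-fold over other gated cells. The endosomal sodium-proton exchanger Slc9a9 was 20.01-fold and 18.1-fold higher.

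Slc37a2, a sugar-phosphate exchanger of the endoplasmic reticulum, was 15.6-fold (10.8 to 22.8) higher in ND and 66.4-fold (35.6 to 140) in HFD. Slc15a3, a lysosomal carrier of peptides and histidine, was 14.2-fold and 36.3-fold higher, and Slc43a2, of the large neutral amino acid carriers, 8.86-fold and 12.8-fold. Slc40a1, the iron exporter ferroportin, was 8.51-fold (5.33 to 13.5) and 44.6-fold (25.0 to 87.6). The other 6, Slc16a10, Slc16a7, Slc29a3, Slc7a7, Slc8b1 and Slc41a2, lay between 4.08-fold and 13.3-fold.

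**Figure D3:**
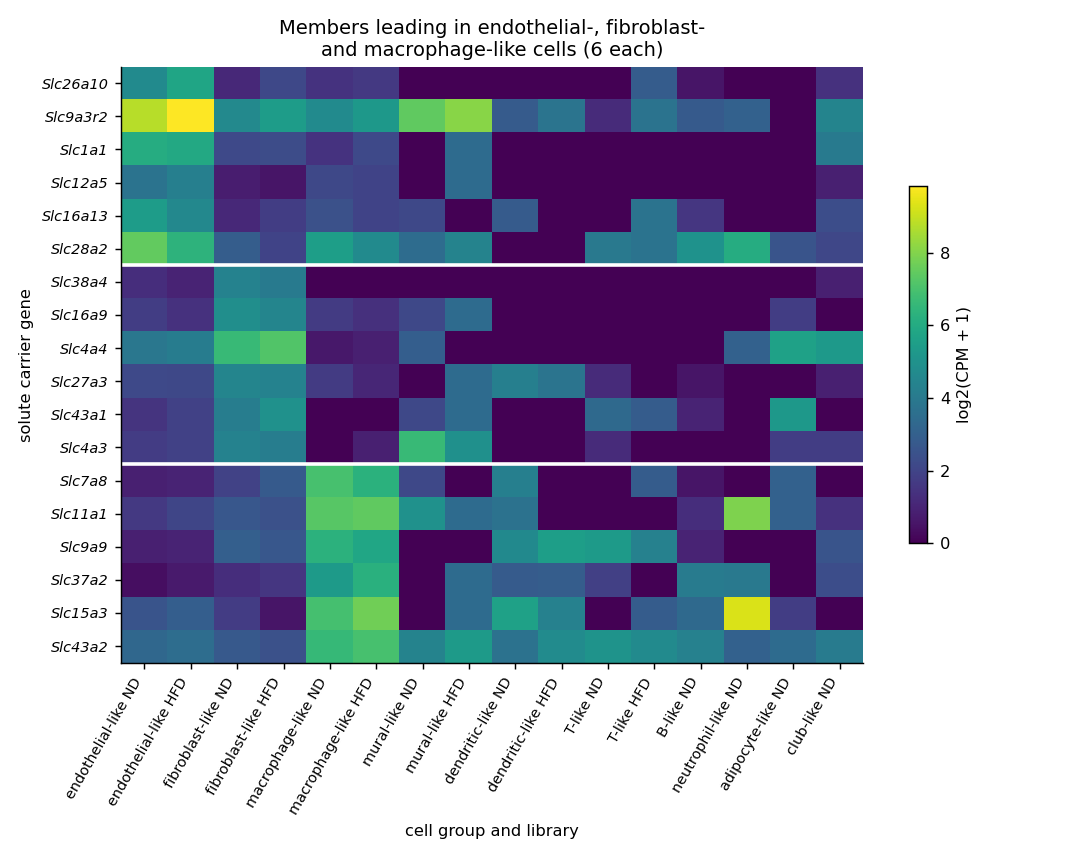
Level of the 6 members that lead, by the smaller of their ND and HFD folds over other gated cells, in endothelial-like (top block), fibroblast-like (middle) and macrophage-like cells (bottom), as log2(CPM + 1), in each gate and library with at least 20 cells, where the darkest colour is 0. Slc9a3r2 has the highest value, 914 CPM in endothelial-like HFD cells, and Slc15a3 and Slc11a1 are also high in neutrophil-like ND cells.

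Lymphoid cells shared 1 carrier. Slc38a1, which takes up glutamine, had 341 UMIs in B-like cells of ND, 165 CPM and 6.38-fold (5.55 to 7.32) over other gated cells, and was the single member of 82 called there (5.71% of all genes). It was also the single member of 8 called in T-like cells (9.37% of all genes), at 195 and 245 CPM, 5.83-fold (4.84 to 6.97) and 8.08-fold (5.66 to 11.3). In dendritic-like cells it was 4.97-fold and 4.02-fold higher, 1 of 6 members compared (7.97% of all genes). In mural-like cells 0 of 8 members were called, against 12.3% of all genes.

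The rarer types of the ND library were small groups, so few members had 20 UMIs and many of those that did were high. In 67 neutrophil-like cells 9 of 13 members were called, and 37.7% of all genes. Slc7a11, the cystine-glutamate exchanger, had 287 UMIs there, 2129 CPM and 300.3-fold (246 to 367), and Slc16a3, the lactate exporter of glycolytic cells, had 203 UMIs and was 356-fold (277 to 460) higher. The glucose carrier Slc2a3 was 75.4-fold higher, Slc2a6 85.0-fold, Slc40a1 52.7-fold and Slc15a3 43.7-fold.

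In 25 adipocyte-like cells 16 of 30 members were called, and 20.6% of all genes. Slc36a2, an amino acid-proton symporter, had 223 UMIs and was 372-fold (256 to 557) higher, Slc1a3, a glutamate carrier, 87.2-fold, and Slc2a4, the insulin-responsive glucose carrier, 82.5-fold. The mitochondrial citrate carrier Slc25a1, which supplies acetyl groups for fatty acid synthesis, was 56.4-fold higher, the fatty acid transport protein Slc27a1 40.8-fold and the dicarboxylate carrier Slc25a10 32.9-fold. The other 10 were 8 members of the mitochondrial Slc25 family, the neutral amino acid carrier Slc1a5 and the lactate carrier Slc16a1, at 4.08-fold to 12.3-fold.

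In 62 club-like cells, a secretory type of the airway and not of the aortic wall, 10 of 73 members were called, and 10.6% of all genes. Slc16a11, of the monocarboxylate carriers, had 293 UMIs and was 107-fold (78.3 to 149) higher, the peptide carrier Slc15a2 17.2-fold, the sodium-potassium-chloride cotransporter Slc12a2 13-fold, the metal importer Slc39a8 7.5-fold, Slc45a3 7.23-fold and Slc22a23 6.27-fold. No club-like cell was found in HFD.

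Between the diets, 161 members could be compared in endothelial-like cells, with a summed count of 50 UMIs or more and no fewer than 4 per library. In HFD, 9 were at least 2-fold higher and 4 at least 2-fold lower, while 1.64% of all 10604 genes were higher and 4.0% lower. The other 148 lay within 2-fold. The median log2 ratio of members was -0.06, and that of all genes was -0.10. Slc35c1, a GDP-fucose carrier, and the amino acid exchanger Slc7a6 were just past 2-fold, on 23 and 27 and on 39 and 44 UMIs.

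After Slc6a6, with a log2 ratio of 3.17 (3.08 to 3.25), the largest rises were in sparse genes. Slc29a4, a carrier of monoamines and adenosine, had 11 UMIs in ND and 47 in HFD, a log2 ratio of 2.95 (1.98 to 4.04). Slc4a8, a sodium-driven chloride-bicarbonate exchanger, had 22 and 56 UMIs, a ratio of 2.20 (1.47 to 2.98). The lactate exporter Slc16a3 had 30 and 61 UMIs, a ratio of 1.88 (1.22 to 2.56).

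Slc25a24, a mitochondrial carrier of ATP-magnesium and phosphate, had 144 and 240 UMIs, at 13.1 and 39.3 CPM, a log2 ratio of 1.59 (1.29 to 1.90). It rose in Gpihbp1-type cells from 10.5 to 37.0 CPM and in arteriolar-type cells from 9.40 to 55.5 CPM. Slc9a3r2 went from 439 to 914 CPM, a log2 ratio of 1.06 (1.003 to 1.12), and Slc26a10 from 25.3 to 53.7 CPM, 1.09 (0.85 to 1.32). Removed barcodes also had more Slc9a3r2 in HFD, 304 against 124 CPM.

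The 4 members that were lower were Slc16a6, Slc15a2, Slc45a3 and Slc28a2. Slc16a6, of the monocarboxylate carriers, had 153 UMIs in ND and 18 in HFD, a log2 ratio of -2.24 (-3.03 to -1.53). Its locus overlaps Amz2 and Arsg on the other strand, and the use of strand in the counting is not stated. The peptide carrier Slc15a2 had 166 and 30 UMIs, -1.616 (-2.23 to -1.05), and Slc45a3 had 49 and 9 UMIs, -1.59 (-2.80 to -0.55). Slc15a2 and Slc45a3 were also among the leading genes of club-like cells, whose marker list summed to 22.3 CPM in endothelial-like cells of ND and 0.491 CPM of HFD, and the part of club-cell RNA in these falls was not tested. Slc28a2 was given above, and Slc16a13, at 41.8 and 22.9 CPM, fell by less than 2-fold, with a log2 ratio of -0.87 (-1.15 to -0.59).

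**Figure D4:**
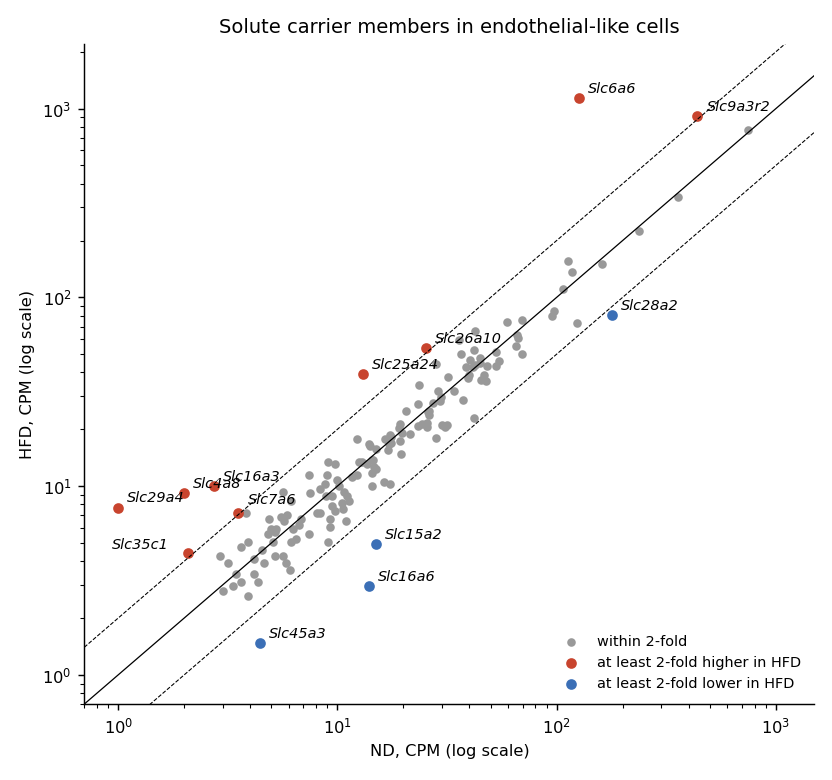
Level of the 161 members compared in endothelial-like cells, ND on the horizontal and HFD on the vertical axis, both in CPM on a log scale, with a solid line at equal levels and dashed lines at a 2-fold difference. Slc6a6, at 126 and 1136 CPM, lies farthest above the line among abundant genes, and Slc28a2 (179 and 80.4 CPM) lies below it.

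Within the endothelial types, fewer members could be compared. In Gpihbp1-type cells 4 of 126 were higher in HFD and 8 lower (1.86% and 5.09% of all genes), in arteriolar-type cells 2 of 91 were higher and 3 lower (1.37% and 3.71%), and in Vcam1/Cytl1-type cells 4 of 62 were higher and 1 lower (2.19% and 3.37%). In Gpihbp1-type cells Slc50a1 fell from 121 to 54.2 CPM, a log2 ratio of -1.16 (-1.40 to -0.92), and Slc16a13 from 49.4 to 23 CPM. In Vcam1/Cytl1-type cells Slc4a8 rose from 13.4 to 53.5 CPM, a log2 ratio of 1.996 (1.14 to 2.90), on 18 and 36 UMIs, and the bicarbonate cotransporter Slc4a7 fell from 46.2 to 17.8 CPM. Slc9a3r2 was higher in HFD in Gpihbp1-type cells, 1000.4 against 458 CPM, and in Vcam1/Cytl1-type cells, 542 against 227 CPM. In arteriolar-type cells the 4 members that do not transport, Slc9a3r2 among them, summed to 588 CPM in ND and 1022 CPM in HFD. The log2 ratio of that sum was 0.80 (0.69 to 0.90), and 88.1% and 98.7% of these cells had a UMI of Slc9a3r2.

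Summed by family, the 26 members of the amino acid families went from 1505 to 2551 CPM, a log2 ratio of 0.76 in endothelial-like cells. Without Slc6a6 the other 25 stood at 1379 and 1414 CPM, 0.04 (-0.00 to 0.07), so nearly all of the difference was that of Slc6a6. The 4 nucleoside carriers fell from 238 to 146 CPM, -0.71 (-0.82 to -0.60). Without Slc28a2 the other 3 stood at 59.9 and 65.3 CPM. The 34 mitochondrial carriers, at 1304 and 1338 CPM, the 16 zinc and manganese carriers, at 490.4 and 477 CPM, and the 19 nucleotide sugar carriers, at 331 and 336 CPM, had log2 ratios of 0.04, -0.04 and 0.02. The sugar families, Slc5a3 included, fell from 249 to 174 CPM, -0.52 (-0.62 to -0.41), of which Slc50a1 gave the larger part, from 124 to 73.0 CPM.

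Lists of genes that work with these carriers were compared in endothelial-like cells. Of the list of taurine and organic osmolyte genes, 6 of 7 could be compared, and Slc6a6 was the 1 that passed 2-fold. The osmotic stress factor Nfat5 stood at 171 and 141 CPM, the myo-inositol carrier Slc5a3 at 69.2 and 50.1 CPM, and the taurine synthesis genes Cdo1 and Csad at 15.5 and 14.6 CPM and at 22.9 and 20.8 CPM. Of 9 genes of adenosine and nucleoside handling, Slc28a2 was the 1 past 2-fold, and Slc29a1 stood at 53.2 and 51.1 CPM.

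In the list of the amino acid response, Asns (asparagine synthetase) rose from 12.4 to 40.4 CPM, a log2 ratio of 1.70 (1.40 to 2.01), and none of the other 10 compared passed 2-fold. Of 9 genes of glucose use Slc16a3 was the 1 higher and none was lower. None of 9 genes of the sodium pump and transporter companions and none of 8 iron genes passed 2-fold.

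In fibroblast-like cells, 1 of 139 members was higher in HFD and 6 were lower, and 1.35% and 4.93% of all genes were. Scaled without mitochondrial, haemoglobin and ribosomal genes, 5 were higher and 3 lower, and scaled by the median of ratios 4 and 4. The shares of all genes under these 2 scalings were not computed. Slc2a1, the basal glucose carrier, had the largest difference, with 76 UMIs in ND and 6 in HFD, 18 and 2.92 CPM and a log2 ratio of -2.63 (-4.12 to -1.44). In endothelial-like cells Slc2a1 stood at 21.4 and 19 CPM. Slc20a1, a phosphate importer, fell from 36.7 to 17 CPM, -1.11 (-1.68 to -0.57).

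Slc25a23, a mitochondrial ATP-magnesium and phosphate carrier, had a log2 ratio of -1.003 (-1.67 to -0.39). Of sparser genes, Slc38a1 had 46 and 10 UMIs, with a log2 ratio of -1.17, and the monocarboxylate carrier Slc16a7 had 41 and 9, -1.15. Slc16a7 was also 4.61-fold higher in club-like cells, whose marker list summed to 42.9 CPM in fibroblast-like cells of ND and 4.86 CPM of HFD, and the neutrophil-like list summed to 14.9 and 1.46 CPM. Slc38a1 was also called in B-like, T-like and dendritic-like cells. Their marker lists summed to 25.8, 8.29 and 13.5 CPM in fibroblast-like cells of ND and to 9.72, 8.75 and 11.2 CPM of HFD. The part of such RNA in these falls was not tested. The member that rose, Slc10a3, had 25 and 28 UMIs, 1.20 (0.37 to 2.04), and its locus overlaps Ubl4a on the same strand. Below 2-fold, mitoferrin Slc25a28 had a ratio of 0.96 (0.55 to 1.38), the metal importer Slc39a14 0.94 (0.56 to 1.32), the lactate carrier Slc16a1 0.89 and the glycine carrier Slc6a9 0.86. In the companion lists, Atp1b1 and Atp1b2 were lower and Emb higher among 9 genes of the pump list, and Asns was higher and Ddit3 and Slc1a4 lower among 10 of the amino acid response. Slc2a1 was lower among 7 glucose genes, and none of 6 osmolyte, 5 nucleoside and 7 iron genes passed 2-fold.

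In macrophage-like cells, 4 of 123 members were higher in HFD and 5 were lower, and 3.63% and 4.87% of all genes were. Scaled by the median of ratios, 7 were higher and 4 lower, and the shares of all genes so scaled were not computed. The rises were in carriers of creatine, fatty acids, iron and cystine. Slc6a8, the creatine transporter, had 19 UMIs in ND and 200 in HFD, 10.7 and 53.5 CPM, with a log2 ratio of 2.33 (1.65 to 3.09). In cells of 2500 to 5000 UMIs Slc6a8 stood at 5.14 CPM in ND and 6.51 CPM in HFD. In cells of 5000 to 10000 UMIs it stood at 4.13 and 25.9 CPM, and in deeper cells at 53.6 and 123 CPM. The 15 deeper cells of ND held 12 of its UMIs, and the part of depth in this rise was not tested. Slc27a1, which imports long-chain fatty acids, had 50 and 460 UMIs, 28.1 and 123 CPM, 2.13 (1.71 to 2.58).

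The iron exporter Slc40a1 went from 19.7 to 61.0 CPM, a log2 ratio of 1.63 (1.12 to 2.19), and the cystine-glutamate exchanger Slc7a11 from 27 to 65.8 CPM, 1.29 (0.84 to 1.77). Among 10 iron genes the ferritin gene Fth1 also rose, from 8655 to 17401 CPM, and Cp fell from 92.7 to 35.6 CPM. Slc12a4, a potassium-chloride cotransporter, had 14 and 56 UMIs and a ratio of 0.93 (0.07 to 1.89), under 2-fold.

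The 5 members that fell were Slc15a2, from 34.3 to 9.36 CPM, the mitochondrial nucleotide carrier Slc25a33, from 32.6 to 11 CPM, the orphan Slc35e3, from 16.8 to 6.69 CPM, the zinc carrier Slc30a4, from 17.4 to 7.76 CPM, and the CMP-sialic acid carrier Slc35a1, from 18.5 to 8.56 CPM. Slc25a33 and Slc15a2 were also high in neutrophil-like and club-like cells, whose marker lists summed to 221 and 24.2 CPM in macrophage-like cells of ND and to 68.8 and 0 CPM in HFD, and their part in these falls was not tested. Of 8 genes of the amino acid response Slc7a11 was the 1 past 2-fold, while Csad and Nfat5 were lower among 5 osmolyte genes. None of 6 nucleoside, 7 pump and 8 glucose genes passed 2-fold.

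The makeup of the macrophage-like gate differed between the diets. Foam-type cells, with Gpnmb, Trem2 or Spp1, numbered 13 in ND and 148 in HFD, and resident-type cells, with Lyve1, Folr2, F13a1 or Cbr2, numbered 177 and 140. Each type needed at least 2 UMIs of its markers and none of the other's. Within HFD, 70 members could be compared between the 2 types, and 13 were at least 2-fold higher and 7 at least 2-fold lower in foam-type cells, against 9.39% and 10.1% of all genes.

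The members that rose with diet in the whole gate were among the higher ones. Slc6a8 had 142 UMIs in foam-type and 1 in resident-type cells of HFD, 104 and 1.29 CPM. Slc40a1 stood at 111 against 9.02 CPM, a log2 ratio of 3.63, Slc27a1 at 189 against 60.6 CPM, 1.64, and Slc7a11 at 103 against 33.5 CPM, 1.63. All 4 members that rose differed between the types in the same direction. The share that did so among all genes that rose was not counted, so this is not read as particular to the members. In resident-type cells alone, 2 of 51 members were at least 2-fold higher in HFD and 0 lower (1.56% and 2.62% of all genes). These were Slc38a1, from 29.2 to 69.6 CPM, and Slc27a1. There, Slc27a1 went from 17.8 CPM in ND to 60.6 CPM in HFD, a log2 ratio of 1.77 (0.88 to 2.75), while Slc6a8 had 4 and 1 UMIs. Slc40a1 was lower in resident-type cells of HFD, 9.02 against 24.1 CPM on 7 and 19 UMIs, the opposite order to the whole gate.

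Also higher in foam-type cells were Slc15a3, at 339 against 83.8 CPM, Slc37a2, at 106 against 23.2 CPM, and the choline carrier family member Slc44a2, at 33.7 against 9.02 CPM. Lower were Slc9a9, at 15.4 against 111 CPM, Slc28a2, at 11.7 against 50.3 CPM, the myo-inositol carrier Slc5a3, at 23.5 against 70.9 CPM, and the phosphate importer Slc20a1, at 44.7 against 119 CPM. Slc5a3 overlaps Mrps6 on the same strand, so its reads may not all be its own. Foam-type cells were deeper, with a median of 8430.5 UMIs against 5312.5, and Slc6a8 in macrophage-like cells of HFD stood at 6.51 CPM in cells of 2500 to 5000 UMIs and at 123 CPM in cells over 10000. The part of depth in the ratio of Slc6a8 was not tested.

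**Figure D5:**
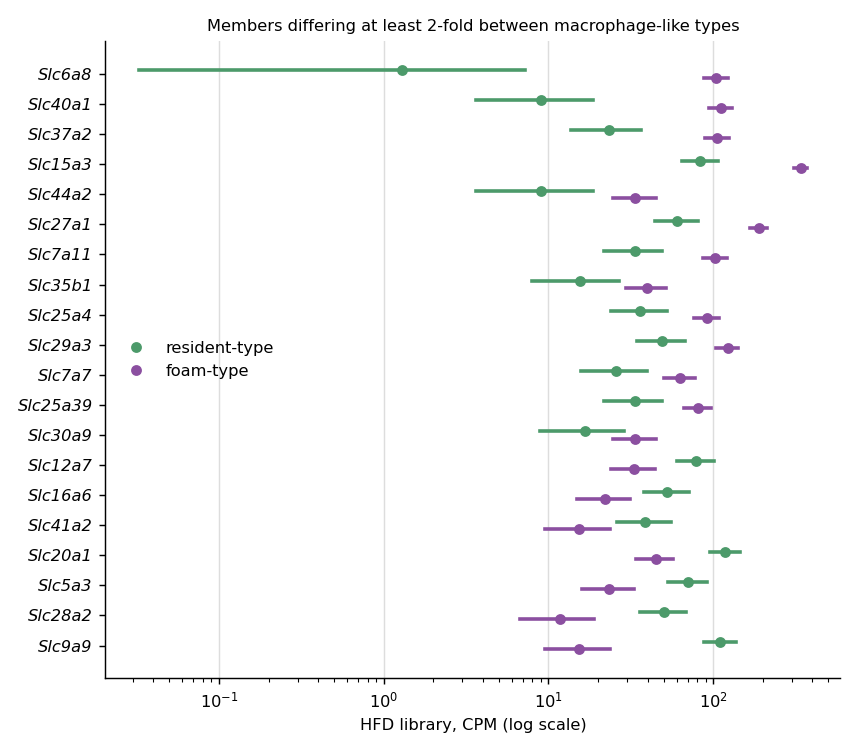
Level of the 20 members at least 2-fold apart between foam-type (purple) and resident-type (green) macrophage-like cells of the HFD library, in CPM on a log scale with exact 95% Poisson intervals. The genes are ordered by the ratio, from Slc6a8 (104 against 1.29 CPM) at the top to Slc9a9 (15.4 against 111 CPM) at the bottom.

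T-like cells allowed 16 members to be compared, on 24 cells in HFD, where 347 barcodes passed the gate without the mitochondrial limit. Slc6a6 was at least 2-fold higher, as given above, and Slc16a6, with 51 and 4 UMIs, and Slc3a2, from 255 to 126 CPM, were at least 2-fold lower, against 10.5% and 11.1% of all genes. The log2 ratio of Slc16a6, -1.44 (-3.37 to 0.01), had an interval that held equal levels. Scaled by the median of ratios, 0 members were higher and 3 lower, and the shares of all genes so scaled were not computed. Slc25a5, at 290 and 434 CPM, and Slc38a1, at 195 and 245 CPM, had log2 ratios of 0.58 (0.17 to 0.98) and 0.33 (-0.22 to 0.85), which went to -0.22 and -0.51 without a mitochondrial limit. The intervals of Slc25a4, Slc9a3r1, Slc4a7, Slc25a36 and Slc50a1 held equal levels. In the lists, Emb was lower among 5 pump genes while Slc6a6 was higher and Nfat5 lower among 3 osmolyte genes, Phgdh was higher and Slc3a2 and Atf4 lower among 5 of the amino acid response, Hk2 was lower among 4 glucose genes, neither of 2 iron genes passed, and no nucleoside gene had enough UMIs.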

How the data were processed

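The authors deposited 1 matrix of UMI counts per library, made with Cell Ranger (3.0.1 in the matrix header) on the mouse genome. The aggregated matrix of both libraries was not used here. No read, strand setting or cell annotation was used here. Python (3.11.15), pandas (2.3.3), scipy (1.17.1) and numpy (2.4.6) were used. Barcodes were filtered and gated as described, UMIs were summed per gate and library, and levels were given as CPM of the summed UMIs. Intervals are exact Poisson for levels, exact conditional binomial for ratios and exact Clopper-Pearson for shares. The scripts were tested on simulated data. No doublet caller was run, and the dominance rule and the alternative without the deepest cells stand in its place.

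The members and all gene lists (taurine and organic osmolytes, adenosine and nucleoside handling, amino acid response, iron handling, glucose use, sodium pump and transporter companions) were chosen with earlier results of these data known. Named genes were Slc6a6 and Slc28a2, the 10 members with the most UMIs, up to 6 members per gate by the lower fold, the 5 largest rises and falls per diet comparison and the 4 largest differences each way between subtypes. Others were named after their values were seen, and a few members that were counted are not reported here by name. Positions are those of GENCODE on GRCm38. In all, 7 members overlap another listed gene on the same strand and 51 on the other strand. Alternatives changed the gate dominance, the mitochondrial limit, the deepest cells, the scaling, the weight of cells and the UMI minimum.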

Additional observations from a re-analysis of the deposited data

How the results depend on the processing

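No paired analysis was possible because each diet had 1 library, and no replicate could be left out. Of 48 single-gene ratios, 4 changed sign, all in T-like cells and all under 2-fold: without a mitochondrial limit Slc25a4 went to -0.24, Slc25a5 to -0.22, Slc38a1 to -0.51 and Slc9a3r1 to -0.27, and the last 2 also changed sign with a limit of 20% (-0.43 and -0.11) and scaled by the median of ratios (-0.04 and -0.06). The log2 ratio of Slc6a6 in endothelial-like cells stayed between 2.98 and 3.25 and that of Slc28a2 between -1.28 and -1.07. Of the counts and other main results, 158 stayed within 1.5 times or the counting interval and 53 moved, and of the single genes 362 stayed and 21 moved. The cause was not tested, except that a changed UMI minimum changes how many genes are compared. Shares of all genes were not computed under the alternatives, so the counts of members below have no such share beside them. With a gate dominance of 2, T-like cells had 2 members higher in HFD and dendritic-like cells 0 members of their own. With a dominance of 10, members higher in HFD numbered 5 in endothelial-like, 2 in fibroblast-like and 0 in T-like cells, 0 were lower in T-like cells, B-like cells had 2 members of their own and Vcam1/Cytl1-type cells 6 higher ones. With a mitochondrial limit of 20%, 2 were higher in fibroblast-like and 9 lower in macrophage-like cells, the endothelial-like, fibroblast-like and B-like gates had 5, 3 and 3 members, 3 were higher in Vcam1/Cytl1-type and 4 lower in foam-type cells. Without the deepest 10% of cells, 2 were higher in fibroblast-like and 0 lower in T-like cells, the dendritic-like, B-like and club-like gates had 0, 2 and 6 members and 3 were higher in Vcam1/Cytl1-type cells. Scaled without mitochondrial, haemoglobin and ribosomal genes, 5 were higher and 3 lower in fibroblast-like cells, and the B-like and T-like gates had 3 and 2 members. With each cell weighted equally, 3 were higher in fibroblast-like and 1 lower in T-like cells, and the mural-like gate had 1 member. With the UMI minimum divided by 2, 2 were higher and 10 lower in fibroblast-like cells, 4 higher in T-like, 12 lower in foam-type and 1 higher in Inmt-type cells. At 2 times the minimum, 4 were higher in endothelial-like, 0 higher and 2 lower in fibroblast-like, 0 lower in macrophage-like, and 0 higher and 1 lower in T-like cells. The dendritic-like, T-like, neutrophil-like and club-like gates then had 0, 0, 5 and 5 members, 3 were higher in Vcam1/Cytl1-type, 3 lower in foam-type and 1 lower in Inmt-type cells. Scaled by the median of ratios, 4 were higher in fibroblast-like, 7 in macrophage-like and 0 in T-like cells. Without a mitochondrial limit, an alternative chosen after seeing the data, 10 were lower in endothelial-like and 0 higher in fibroblast-like cells, and the mural-like and T-like gates had 1 and 2 members. Depth limits genes with few UMIs and the small gates, and with 1 library per diet the spread between animals is unknown.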
